A study of Mus musculus with 15 samples.

Results

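Liver RNA of chow-fed mice treated with MCOPPB was compared with that of chow-fed mice given saline, over all expressed genes. The members were chosen from the sample titles: 5 MCOPPB libraries and 3 saline libraries, 8 of the 15 libraries in the series, each from 1 mouse. All were male C57BL6J mice, aged 9.5 months, which at 2 weeks of age had received the vehicle of diethylnitrosamine (DEN, a liver carcinogen) and then stayed on chow. MCOPPB is a ligand of the nociceptin opioid receptor, and the series title names it a senolytic, an agent against senescent cells. It was injected into the peritoneum at 5 mg/kg on 5 days in a row, with 2 days without injection, over 3 such cycles (21 days). The saline mice were injected with saline instead. The other 7 libraries came from mice given DEN at 25 mg/kg and, from week 6, a high fat diet with 60% of its energy from lard for 32 weeks (DEN/HFD), 4 with saline and 3 with MCOPPB. They served here for the estimate of the spread and for 1 test of a difference between diets. The time between the last injection and the collection of the liver, and the time of day, are not given in the sources used here. P-values measure the spread between these mice. With 3 saline mice, their number limits the precision of every comparison.

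The mouse liver expresses many genes at different levels in males and females. The pattern in which the pituitary releases growth hormone, pulsed in males and more even in females, sets most of these differences through the transcription factor STAT5. Male-biased genes include the major urinary proteins, which carry pheromones into the urine, and several steroid and fatty acid enzymes. Female-biased genes include members of the Cyp2a, Cyp2b and Cyp2c families of cytochromes P450, enzymes that oxidise steroids, fatty acids and drugs. Some of these enzymes also respond to CAR and PXR, nuclear receptors that sense foreign compounds.

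Values are normalized counts, obtained by inverting the variance-stabilised log2 values that the authors deposited, and differences are MCOPPB minus saline on the deposited log2 scale, which compresses those of weakly expressed genes. Depth was estimated at 14.1 to 18.7 M assigned reads (M, 1e6) per chow library, and 13863 to 16057 genes lay above the lowest value. A gene listed at 0 is at that lowest value. The upper limit that 0 allows, 3 reads, corresponds to about 2.24 to 3.44 normalized counts in these libraries and covers counting error only. At the estimated depth, only 15.2% to 45.4% of low values per library were whole within 0.01 read. The depth and the 3-read limit are therefore rough estimates. Chow saline 2 and chow MCOPPB 4 stood apart from the other 6 libraries on the first principal component (35.8% of the variance). Transcripts of the mitochondrial genome took 29.3% and 31.0% of their counts, against 14.9% to 22.5% in the other 6. The second component (18.4%) separated all saline from all MCOPPB libraries. The labels give 2 differing values of RNA integrity (RIN) per library. The first averaged 9.96 ± 0.055 with MCOPPB (SD, n = 5) and 9.23 ± 0.40 with saline (n = 3). Its values did not overlap, with 9, 9.7 and 9 in the 3 saline mice and 9.9 to 10 in the 5 MCOPPB mice. An exact two-sided permutation test gave p = 0.0357, the smallest this test can reach here (adjusted p = 0.107 over 3 library measures). The second averaged 9.28 ± 0.31 and 9.00 ± 0.10 (exact permutation p = 0.286). The part of RNA integrity in the differences below was not tested beyond the fits with RIN as a covariate.

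Of 11568 genes tested, limma called 37 (0.32%) at an adjusted p under 0.05, 18 higher (0.156%) and 19 lower (0.164%) with MCOPPB. An unadjusted p under 0.05 was reached by 1048 genes (9.06%). The difference over all tested genes had a median of 0.00, and 50.1% of genes had a positive difference. The values of both groups did not overlap for 552 genes (4.77%), among them all 37 that were called. Of the called genes, 21 differed by more than 2 on the log2 scale. Drug and steroid metabolism and male pheromone carriers made up most of the set: 8 cytochromes P450 (6 higher, 2 lower), 8 major urinary proteins (all lower), 5 transporters (4 higher, 1 lower) and 3 genes of sulfate conjugation (all higher). Chromosomes 4, 7 and 19 held 21 of the 37 called genes and 17.7% of the genes tested.

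The largest rise was that of Cyp2b9, a female-biased cytochrome P450. It stood at 30.4, 0 and 18.4 normalized counts in the 3 saline mice and 2847, 3009.6, 4167, 2115 and 4341 in the 5 MCOPPB mice. Every MCOPPB mouse lay above every saline mouse, and the difference was 5.50 ± 0.29 (moderated SE), limma adjusted p = 6.97e-09. Its neighbour Cyp2b13 was listed at 0 in all 3 saline mice and at 207, 140.5, 276, 178 and 446 normalized counts with MCOPPB, a difference of 2.82 ± 0.22, limma adjusted p = 1.69e-06. The third tested member of the family, Cyp2b10, best known as a target of CAR, did not pass the test: it stood at 0, 0 and 54.7 normalized counts in the 3 saline mice and 27.4, 34.2, 36.9, 5.30 and 64.4 in the 5 MCOPPB mice, with overlapping groups (0.64 ± 0.32, limma adjusted p = 0.597).

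Cyp2b9 (chr7:26173411-26210661) and Cyp2b13 (chr7:26061497-26096197) rose together, and their promoters are nearly the same. The 250 bases before the RefSeq starts, taken from RefSeq's GRCm38.p6 annotation on the plus strand (chr7:26173159-26173408 for Cyp2b9 and chr7:26061245-26061494 for Cyp2b13), are given here, with the differing bases in capitals.
Cyp2b9: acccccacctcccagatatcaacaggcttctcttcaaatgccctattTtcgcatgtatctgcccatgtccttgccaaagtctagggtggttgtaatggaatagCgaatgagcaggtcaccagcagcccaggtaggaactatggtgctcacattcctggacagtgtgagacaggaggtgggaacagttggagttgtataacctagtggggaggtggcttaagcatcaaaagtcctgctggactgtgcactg
Cyp2b13: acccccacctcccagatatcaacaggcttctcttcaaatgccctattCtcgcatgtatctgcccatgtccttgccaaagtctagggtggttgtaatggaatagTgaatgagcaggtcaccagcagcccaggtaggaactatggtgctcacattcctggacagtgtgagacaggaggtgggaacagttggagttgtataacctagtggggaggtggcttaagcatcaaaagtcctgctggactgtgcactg
The pair shares 248 of 250 bases, with 2 mismatches. An alignment of Cyp2b9 with Cyp2b10 left 182 identical bases, 58 mismatches and 20 gap positions. Of the 75-base stretches of Cyp2b9 transcripts, 5.16% also occur in transcripts of another gene, and 16.4% of those of Cyp2b13. The split of such reads between genes is uncertain.

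In the Cyp2a cluster on the same chromosome, all 4 tested genes had a positive difference. Of these 4, 2 were called higher, beside 0.156% of all tested genes. Cyp2a22, a P450 of this cluster, rose from between 34.7 and 63.2 normalized counts with saline to between 531 and 981 with MCOPPB (2.71 ± 0.34, limma adjusted p = 0.000433). Cyp2a4, a female-biased steroid 15-alpha-hydroxylase, was at 17.8, 0 and 16.7 normalized counts in the 3 saline mice and 385, 220.0, 612, 2133 and 2603 in the 5 MCOPPB mice. Its groups did not overlap (3.74 ± 0.70, limma adjusted p = 0.0204), but the MCOPPB mice themselves ranged from 220.0 to 2603. Cyp2a4 was called in 16 of 24 alternative fits, and was lost without chow saline 2, chow saline 3 or chow MCOPPB 5 in turn. Cyp2a5, the coumarin 7-hydroxylase and close relative of Cyp2a4, did not pass the test: it was at 2726, 20696 and 7142 normalized counts in the 3 saline mice and 10452, 11062, 8137, 47035 and 24158 in the 5 MCOPPB mice, with overlapping groups (1.11 ± 0.56, limma adjusted p = 0.604). With the first RIN value as a covariate its difference was -0.11.

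The promoters of Cyp2a4 (chr7:26306942-26307191) and Cyp2a5 (chr7:26835089-26835338) are shown because this pair differed in its calls. Both are the 250 bases before the RefSeq start (GRCm38.p6, plus strand), with capitals at bases that differ or face a gap.
Cyp2a4: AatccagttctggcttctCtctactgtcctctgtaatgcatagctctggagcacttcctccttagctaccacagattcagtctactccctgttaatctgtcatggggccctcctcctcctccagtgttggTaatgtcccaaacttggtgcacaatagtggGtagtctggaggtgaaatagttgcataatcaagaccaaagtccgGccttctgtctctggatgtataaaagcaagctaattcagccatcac
Cyp2a5: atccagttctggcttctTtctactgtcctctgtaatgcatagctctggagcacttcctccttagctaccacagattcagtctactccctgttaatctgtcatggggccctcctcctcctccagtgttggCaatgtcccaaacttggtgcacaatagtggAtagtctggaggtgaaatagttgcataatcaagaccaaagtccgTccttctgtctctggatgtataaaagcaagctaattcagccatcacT
The alignment held 245 identical bases, 4 mismatches and 2 gap positions. Genes this alike share reads: 22.1% of the 75-base stretches of Cyp2a4 transcripts also occur in transcripts of another gene, and 22.3% of those of Cyp2a5. How the authors' counting assigned such reads is not given in the sources used here.

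The Cyp2c cluster on chromosome 19 had 12 tested genes, 10 with a positive difference. Of these 12, 2 were called higher, beside 0.156% of all tested genes. Cyp2c40, a female-biased fatty acid and steroid hydroxylase, was at 118, 70.0 and 42.2 normalized counts in the 3 saline mice and 378, 1056, 1002, 1145 and 1643 in the 5 MCOPPB mice, with no overlap (2.81 ± 0.32, limma adjusted p = 0.000175). Cyp2c69 was at 38.8, 0 and 14.2 normalized counts in the 3 saline mice and 171, 568, 437, 389 and 998 in the 5 MCOPPB mice, again with no overlap (2.88 ± 0.35, limma adjusted p = 0.000321). These 2 genes share 45.9% and 42.6% of their 75-base stretches with other genes, so the split of reads between them is uncertain. Over all 15 annotated Cyp2c genes, the share of all normalized counts was 0.237% ± 0.016 with saline and 0.342% ± 0.081 with MCOPPB (SD, n = 3 and 5), with overlapping groups.

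**Figure D1:**
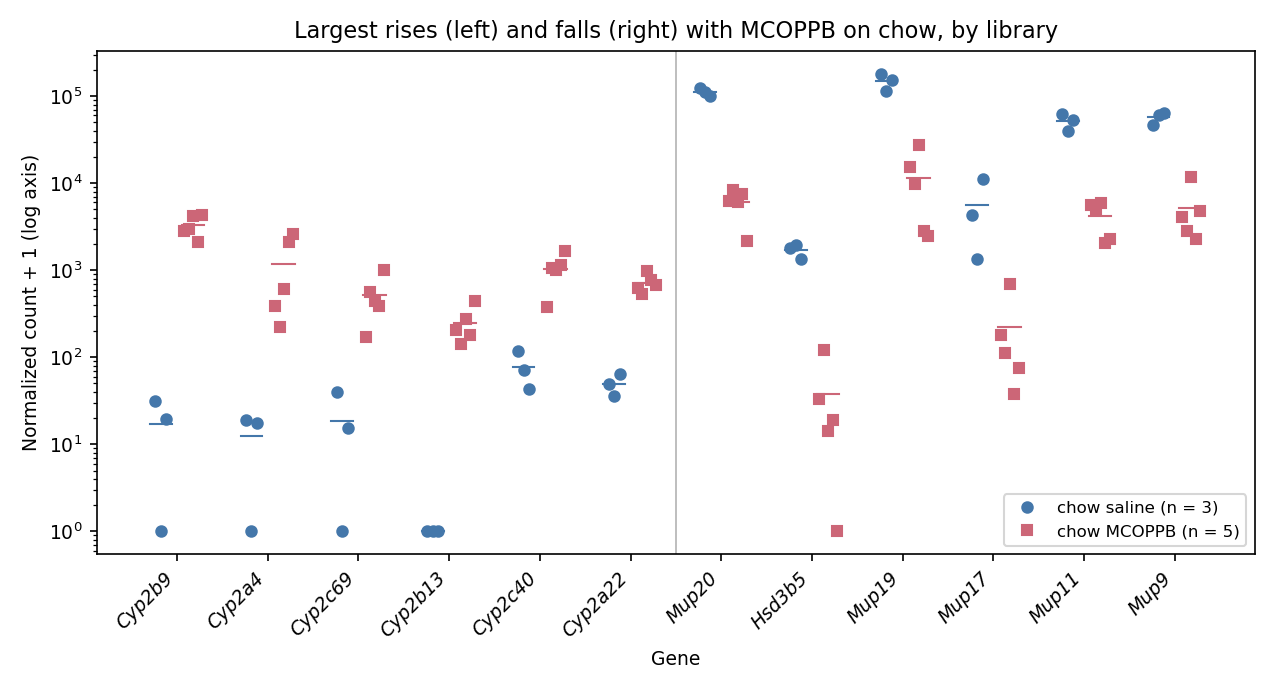
Normalized counts plus 1 (log axis) of the 6 called genes with the largest positive and the 6 with the largest negative differences, 1 point per library, circles for the 3 chow saline and squares for the 5 chow MCOPPB mice, with a bar at each group mean. In none of the 12 genes do the groups overlap. Points at the bottom are libraries at 0, as for Cyp2b13 in all 3 saline mice.

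Transporters and conjugating enzymes formed the next group of rises. Slc22a26, of the organic anion transporter family, was at 5.67, 0 and 0 normalized counts in the 3 saline mice and 142, 98.1, 313, 322 and 485 in the 5 MCOPPB mice (2.69 ± 0.34, limma adjusted p = 0.000433). Slco1a4, which takes up bile acids and drugs from the blood, rose from between 182 and 297 normalized counts with saline to between 693 and 1134 with MCOPPB (1.53 ± 0.20, limma adjusted p = 0.000433). Slc16a5, a monocarboxylate transporter, rose from between 36.2 and 57.3 normalized counts with saline to between 223 and 326 with MCOPPB (1.57 ± 0.22, limma adjusted p = 0.00111). Each of these 3 transporters was higher in all 5 MCOPPB mice than in any saline mouse. Abcb1a, the efflux pump P-glycoprotein, was at 23.2, 0 and 11.5 normalized counts in the 3 saline mice and 86.2, 75.6, 88.5, 99.2 and 92.4 in the 5 MCOPPB mice (1.30 ± 0.22, limma adjusted p = 0.00943). Without chow saline 2 and without chow saline 3 in turn, Abcb1a was not called.

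Sulfate conjugation contributed 3 genes. Sult3a1, an amine sulfotransferase, was listed at 0 in all 3 saline mice and at 32.4, 37.2, 37.4, 26.5 and 15 normalized counts with MCOPPB (1.13 ± 0.18, limma adjusted p = 0.00782). Sult2a7, of the family that sulfates bile acids and steroids, rose from between 39.1 and 42.1 normalized counts with saline to between 119 and 155 with MCOPPB (0.95 ± 0.17, limma adjusted p = 0.0115). Papss2, which makes the sulfate donor for these enzymes, rose from between 1104 and 1416 normalized counts with saline to between 2799.6 and 3324 with MCOPPB (1.28 ± 0.24, limma adjusted p = 0.0191). All 5 MCOPPB mice lay above all 3 saline mice for each of them. None of the 3 was called without chow saline 3.

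The promoters of Slc22a26 and Sult3a1 are shown since they hold the letters TTCNNNGAA, the published consensus for STAT5 binding (palindromic, so the same on both strands), here in capitals. The windows are the 250 bases before the RefSeq start in GRCm38.p6, on the minus strand for Slc22a26 (chr19:7802668-7802917) and the plus strand for Sult3a1 (chr10:33857472-33857721).
Slc22a26: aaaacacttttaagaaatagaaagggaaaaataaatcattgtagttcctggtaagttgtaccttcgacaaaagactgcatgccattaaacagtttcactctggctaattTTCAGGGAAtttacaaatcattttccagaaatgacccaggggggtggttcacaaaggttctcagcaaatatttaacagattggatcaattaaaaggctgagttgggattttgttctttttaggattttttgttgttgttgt
Sult3a1: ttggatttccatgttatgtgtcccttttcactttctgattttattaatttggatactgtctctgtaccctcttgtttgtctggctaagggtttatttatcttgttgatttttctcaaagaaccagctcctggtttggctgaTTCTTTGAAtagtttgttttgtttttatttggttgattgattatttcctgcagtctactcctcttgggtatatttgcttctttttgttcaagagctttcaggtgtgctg
The match begins 141 bases before the start in Slc22a26 and 109 in Sult3a1. Counting windows from 250 bases before to 50 after the start, 3 of 18 promoters of genes called higher held these letters (Slc22a26, Sult3a1 and Esr1) and 0 of 14 of genes called lower. The share was 6.82% among promoters of tested genes and 8.30% among all promoters in the table. A match of letters is a description and no evidence of binding, and the absence of one says only that these letters are not in the window.

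The remaining rises were of single genes with varied roles. Acot3, a peroxisomal acyl-CoA thioesterase, was at 335, 74.7 and 137 normalized counts in the 3 saline mice and 839, 1438, 572, 908 and 1921 in the 5 MCOPPB mice (2.24 ± 0.36, limma adjusted p = 0.00724). Dclre1a, a nuclease for DNA crosslink repair, rose from between 56.4 and 104 normalized counts with saline to between 191 and 394 with MCOPPB (1.34 ± 0.24, limma adjusted p = 0.0144). Esr1, the estrogen receptor alpha, was at 96.7, 24.7 and 66.2 normalized counts in the 3 saline mice and 223, 139.5, 218, 181 and 159 in the 5 MCOPPB mice (1.00 ± 0.20, limma adjusted p = 0.0391). Chow MCOPPB 5 held the highest value of Acot3 but not of Dclre1a or Esr1. Fmo1, a flavin monooxygenase, rose from between 1156 and 1690.0 normalized counts with saline to between 2384 and 4331 with MCOPPB (0.99 ± 0.20, limma adjusted p = 0.0439), and Aldh1b1, a mitochondrial aldehyde dehydrogenase, from between 191 and 270.5 normalized counts with saline to between 331 and 669 with MCOPPB (0.91 ± 0.18, limma adjusted p = 0.033). Each of these 5 genes lost its call when at least 1 library was left out, chow saline 3 in all 5 cases.

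Major urinary protein genes fell most in absolute terms. Together, the 22 annotated Mup genes took 8.08%, 7.05% and 8.56% of all normalized counts in the saline mice and 2.55%, 2.08%, 2.57%, 1.24% and 1.09% in the MCOPPB mice. The mean share was 7.89% ± 0.77 (SD, n = 3) with saline and 1.91% ± 0.71 (n = 5) with MCOPPB, 4.14-fold lower and without overlap.

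Mup20, the pheromone darcin of male urine, was at 122817, 112338 and 99355 normalized counts in the 3 saline mice and 6248, 8252, 6011, 7462 and 2190.0 in the 5 MCOPPB mice (-4.31 ± 0.42, limma adjusted p = 2.21e-05). It was called in each of the 24 alternative fits, and since it shares 43.6% of its 75-base stretches with other genes, the split of reads between them is uncertain. Mup21 was at 2964, 2926 and 3686 normalized counts in the 3 saline mice and 755, 386, 276, 288 and 241 in the 5 MCOPPB mice (-2.88 ± 0.36, limma adjusted p = 0.000433) and was called in all but the fit with the first RIN value as a covariate. Mup3, one of the most abundant, fell from between 141926 and 178853 normalized counts with saline to between 31082 and 64911 with MCOPPB (-1.79 ± 0.37, limma adjusted p = 0.0405). Mup3 was called in 10 of 24 alternative fits, and of the 8 chow libraries left out in turn only the fit without chow MCOPPB 2 kept its call. In all 3 genes the groups lay clear of each other.

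The other 5 called members, Mup17, Mup14, Mup11, Mup9 and Mup19, share 68.7% to 100% of their 75-base stretches with other genes, so their single values are uncertain beside the family sum. Mup17 fell from between 1360.0 and 11294 normalized counts with saline to between 36.4 and 693 with MCOPPB (-4.19 ± 0.68, limma adjusted p = 0.00724). Mup19 fell from between 114857 and 181043 normalized counts with saline to between 2486 and 27129 with MCOPPB (-4.22 ± 0.84, limma adjusted p = 0.033), and none of its 75-base stretches was its own. Mup11 (-3.72 ± 0.70), Mup9 (-3.68 ± 0.73) and Mup14 (-2.55 ± 0.47) fell too. Of these 5, none was called without chow saline 3, and Mup9, Mup11 and Mup19 were also lost without chow saline 1. Counting a pseudogene of the cluster, 18 of its 19 tested genes had a negative difference. The exception, Mup18, was at 63134, 2259.7 and 4782 normalized counts in the 3 saline mice and 19831, 28961, 25523, 6204 and 7341 in the 5 MCOPPB mice, with overlapping groups (0.71 ± 0.89, limma adjusted p = 0.853), and its difference was -0.25 without chow saline 2. Mup7 (-3.65 ± 1.16, adjusted p = 0.282) and Mup1 (-2.71 ± 0.87, adjusted p = 0.295), named here after their values were seen, did not pass limma's test although their groups did not overlap.

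**Figure D2:**
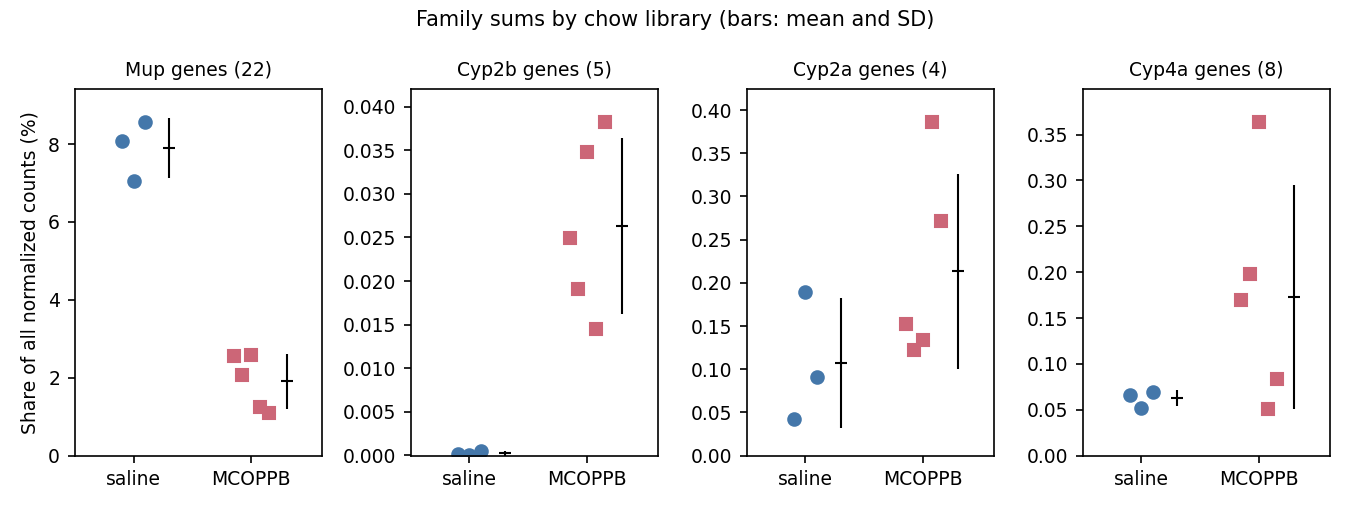
Share of all normalized counts (%) taken by the Mup, Cyp2b, Cyp2a and Cyp4a genes in each chow library. Circles mark the 3 saline and squares the 5 MCOPPB mice, with mean and SD bars. Each panel has its own axis, starting at 0 or, for Cyp2b, just below it. Mup shares are lower (1.09% to 2.57% against 7.05% to 8.56%) and Cyp2b shares higher with MCOPPB without overlap, while the Cyp2a and Cyp4a shares overlap.

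Enzymes of steroids and lipids were among the other falls. Hsd3b5, a male-biased 3-ketosteroid reductase, was at 1804, 1956 and 1335 normalized counts in the 3 saline mice and 32.2, 119, 13.2, 17.8 and 0 in the 5 MCOPPB mice (-4.30 ± 0.71, limma adjusted p = 0.00789). Elovl3, an elongase of very long chain fatty acids, was at 865, 589 and 613 normalized counts in the 3 saline mice and 40.0, 44.7, 83.6, 29.4 and 18.3 in the 5 MCOPPB mice (-2.78 ± 0.26, limma adjusted p = 1.5e-05). Cyp4a12b, a male-biased fatty acid omega-hydroxylase, was at 801, 1359 and 1021 normalized counts in the 3 saline mice and 54.6, 158, 78.0, 116 and 7.61 in the 5 MCOPPB mice (-2.96 ± 0.35, limma adjusted p = 0.000253). Cyp4a12b shares 41.3% of its 75-base stretches with other genes, so its split of reads is uncertain. In Hsd3b5, Elovl3 and Cyp4a12b the lowest saline value was several times the highest MCOPPB value. Hsd3b5 lost its call without chow saline 2 and without chow saline 3 in turn, while Elovl3 and Cyp4a12b kept theirs with each library left out. Cyp2u1, a fatty acid hydroxylase, fell from between 355 and 713 normalized counts with saline to between 158 and 266 with MCOPPB (-1.13 ± 0.22, limma adjusted p = 0.033), and Ugt2b1, which glucuronidates steroids and drugs, from between 3924 and 4962 normalized counts with saline to between 1694 and 2394 with MCOPPB (-1.21 ± 0.20, limma adjusted p = 0.00856). Cyp2u1 was called in 11 of 24 alternative fits and Ugt2b1 in 22 of 24, and both were lost without chow saline 3.

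Genes for secreted and other proteins also fell. C6, a component of the terminal complement complex, was at 1691, 1230.2 and 1632 normalized counts in the 3 saline mice and 716, 513, 325, 209 and 281 in the 5 MCOPPB mice (-1.79 ± 0.30, limma adjusted p = 0.00866). Serpina12, the adipokine vaspin, fell from between 397 and 1282 normalized counts with saline to between 64.3 and 164 with MCOPPB (-2.36 ± 0.40, limma adjusted p = 0.00899). Its neighbour Serpina4-ps1, annotated as a pseudogene, was at 98.6, 529.9 and 103 normalized counts in the 3 saline mice and 0.75, 2.31, 0, 17.0 and 0 in the 5 MCOPPB mice (-2.31 ± 0.36, limma adjusted p = 0.00434) and kept its call with each library left out. Ttn, which encodes the giant muscle protein titin, was at 130.3, 99.2 and 118 normalized counts in the 3 saline mice and 0.67, 0, 0.26, 83.3 and 0 in the 5 MCOPPB mice (-1.69 ± 0.33, limma adjusted p = 0.033). In Ttn, chow MCOPPB 4 lay near the saline mice and the other 4 MCOPPB mice near 0, and the call was lost with any 1 of the other 7 chow libraries left out. Gm36041, a long non-coding RNA gene on chromosome 10, fell from between 176 and 227 normalized counts with saline to between 44.7 and 77.1 with MCOPPB (-1.06 ± 0.19, limma adjusted p = 0.019). The libraries kept strand, but the strand setting of the counting is not given in the sources used here.

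Neighbouring genes of 1 family did not always move together. On chromosome 6, Slco1a4 rose, whereas Slco1a1, the male-biased uptake transporter next to it, was at 2842, 2094 and 2590.2 normalized counts in the 3 saline mice and 445, 531, 60.0, 141 and 8.25 in the 5 MCOPPB mice (-3.47 ± 0.69, limma adjusted p = 0.0337). Slco1a1 was called in 8 of 24 alternative fits and was lost without any 1 of the 3 saline mice and of chow MCOPPB 3, 4 and 5. In the Cyp4a cluster on chromosome 4, Cyp4a12b fell and Cyp4a12a had a difference of -3.03 ± 0.64 just outside the threshold (limma adjusted p = 0.0528). The other 4 tested genes there had positive differences, from 0.16 to 1.92, and none was called. Cyp4a14, a PPAR-alpha target and the highest of these, was at 4680.2, 1192 and 2536 normalized counts in the 3 saline mice and 11256, 14125, 24044, 3195 and 6053 in the 5 MCOPPB mice, with overlapping groups (1.92 ± 0.54, limma adjusted p = 0.213). Summed over the family, the Cyp4a share overlapped between groups (0.0627% ± 0.0090 with saline, n = 3, and 0.173% ± 0.122 with MCOPPB, n = 5; SD). The 4 tested Acot genes on chromosome 12 were all positive, from 0.72 to 2.24, and the share of all 13 annotated Acot genes was higher without overlap (0.0171% ± 0.0028 and 0.0353% ± 0.0085, SD). In the serpin cluster, 10 of 16 genes were negative. The largest of these differences, of Serpina1e, did not pass limma's test although the groups did not overlap (34150.4, 23316 and 12048 normalized counts in the 3 saline mice and 1255, 1477, 659, 1383 and 402 in the 5 MCOPPB mice; -4.38 ± 1.01, limma adjusted p = 0.088).

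Of the 37 called genes, 31 belong to lists of genes known for sex-biased expression in mouse liver, 14 female-biased and 17 male-biased. These lists were drawn up with earlier results of the same data known, so their direction is no independent evidence. Of 43 tested female-biased genes, 41 had a positive difference, 14 rose and none fell (median 1.08, beside 0.00 over all tested genes). Their groups did not overlap for 27, all higher, against 2.64% of all tested genes. Of 59 tested male-biased genes, 54 had a negative difference, 17 fell and none rose (median -1.21), and 32 were lower without overlap, against 2.14%. Over all tested genes, 0.156% were called higher and 0.164% lower. The mean of the female-biased list was 7.88, 7.42 and 7.66 (log2 level) in the saline mice and between 8.68 and 9.27 in the MCOPPB mice. The male-biased list averaged 11.05, 11.23 and 11.10 with saline and 9.10 to 9.86 with MCOPPB. Chow saline 2 and chow MCOPPB 4, the libraries that stood apart, lay with their own groups on both lists. The 6 called genes on neither list were Abcb1a, Dclre1a, Aldh1b1 and Esr1, which rose, and Ttn and Gm36041, which fell.

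**Figure D3:**
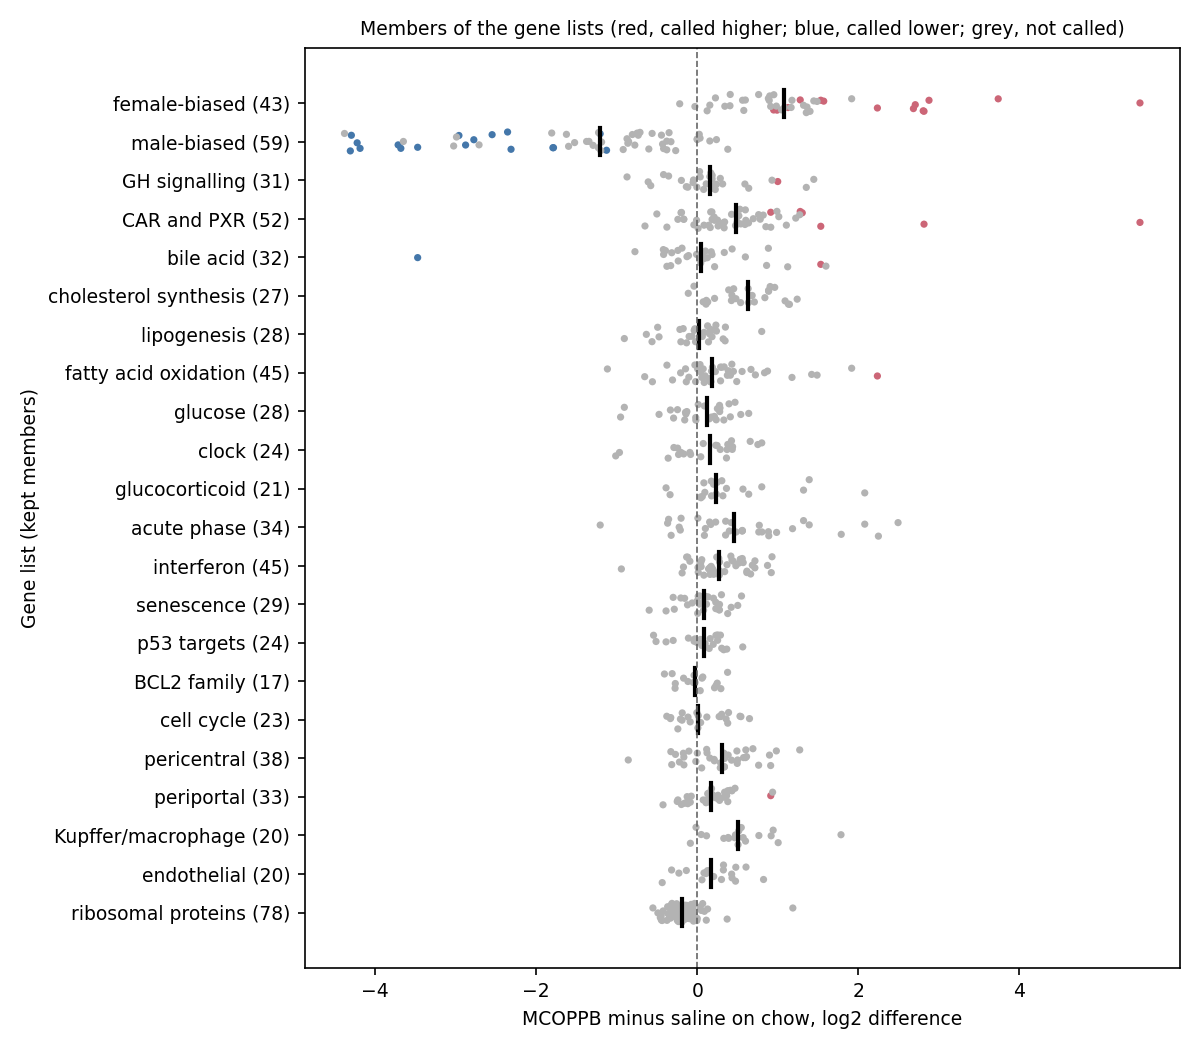
Log2 differences (MCOPPB minus saline on chow) of the tested members of 22 gene lists, 1 point per gene, with the number of members in parentheses, red for genes called higher, blue for genes called lower, grey for genes not called, a black bar at each list's median and a dashed line at the median of all tested genes. The female-biased list lies mostly right of the line (median 1.08), the male-biased list mostly left of it (median -1.21).

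Growth hormone signalling itself was described by 31 tested genes, of which 1, Esr1, rose and none fell (median 0.16), beside 0.156% of all tested genes called higher. Of these 31, 6 had an unadjusted p under 0.05 in limma, beside 9.06% of all tested genes. Without overlap, 3 were higher, beside 2.64%. The list's mean level was 8.33 to 8.44 (log2) with saline and 8.52 to 8.58 with MCOPPB, without overlap. Means of some other lists also separated, among them glucocorticoid-responsive and pericentral genes, while those of most lists overlapped. The hormone's receptor Ghr was at 5698, 4874 and 5053 normalized counts in the 3 saline mice and 4467, 6214, 4778, 6113 and 4596 in the 5 MCOPPB mice (0.00 ± 0.19, limma adjusted p = 0.997), and Stat5b had a difference of 0.22 ± 0.18, limma adjusted p = 0.761. Of the STAT5 targets, Igf1 was at 4612, 9994 and 5048 normalized counts in the 3 saline mice and 5050.3, 5652, 4002, 11417 and 4463 in the 5 MCOPPB mice (-0.12 ± 0.32, limma adjusted p = 0.94), Socs2 had -0.61 ± 0.30, limma adjusted p = 0.579 and Cish -0.05 ± 0.32, limma adjusted p = 0.976. Groups overlapped for all 5, and the differences of Ghr, Igf1 and Cish changed sign under some alternative fits. Cux2, a repressor known from female liver, was at 0, 0 and 0.88 normalized counts in the 3 saline mice and 22.9, 1.21, 28.3, 69.9 and 288 in the 5 MCOPPB mice (1.35 ± 0.41, limma adjusted p = 0.248). Its groups did not overlap, and chow MCOPPB 5 alone held 288.2 of a range that began at 1.21. Bcl6, a repressor known from male liver, was at 507, 103 and 490.4 normalized counts in the 3 saline mice and 48.6, 56.4, 124, 414 and 210.0 in the 5 MCOPPB mice (-0.87 ± 0.48, limma adjusted p = 0.636). Prlr, the female-biased prolactin receptor, ranged from 448 to 1632 normalized counts with saline and 1451 to 3123 with MCOPPB, with overlapping groups (1.45 ± 0.32, limma adjusted p = 0.0705).

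For targets of CAR and PXR, 42 of 52 tested genes had a positive difference, 6 rose and none fell (median 0.48), beside 0.156% and 0.164% of all tested genes. Of these 6, 4 are also on the female-biased list. Without genes on the sex-biased lists, 37 of 47 were positive, 2 rose (Abcb1a and Aldh1b1) and the median was 0.34. CAR (Nr1i3) had a difference of 0.50 ± 0.34, limma adjusted p = 0.711 with overlapping groups, and PXR (Nr1i2) one of 0.48 ± 0.16, limma adjusted p = 0.345. Por, the electron donor of all microsomal P450s, was at 1775, 1525 and 1569.7 normalized counts in the 3 saline mice and 4378, 5101, 3592, 3119 and 4291 in the 5 MCOPPB mice, without overlap but outside the threshold (1.27 ± 0.28, limma adjusted p = 0.0601). Of the genes outside the threshold, those nearest to it were Cyp4a12a, Gm44578, Cyp4a31, Cyp17a1, Adck5, Gstp1, Atp6v0d2, Por, Smtn and Maob, with adjusted p from 0.0528 to 0.0644, beside 0.0439 for Fmo1, the last gene inside it. Gstp1, a male-biased glutathione transferase, ranged from 6300.5 to 17816 normalized counts with saline and 2321 to 4945 with MCOPPB (-1.62 ± 0.35, limma adjusted p = 0.0542). Cyp17a1, a steroid 17-alpha-hydroxylase, ranged from 141 to 242 normalized counts with saline and 286 to 686 with MCOPPB (1.17 ± 0.25, limma adjusted p = 0.0542).

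Bile acid genes showed 1 rise (Slco1a4) and 1 fall (Slco1a1) among 32 tested genes, with a median of 0.05, beside 0.156% and 0.164% of all tested genes. Without overlap, 6 were higher and 2 lower (2.64% and 2.14% of all tested genes). The median was -0.059 without chow saline 2 and 0.16 without chow saline 1. Cyp7a1, whose enzyme limits the rate of making bile acids, was at 105, 366 and 272 normalized counts in the 3 saline mice and 576, 587, 1388, 1648 and 547 in the 5 MCOPPB mice, without overlap but outside the threshold (1.60 ± 0.48, limma adjusted p = 0.246). Akr1d1, a bile acid reductase, had 1.12 ± 0.31, limma adjusted p = 0.213, and Abcg5, of the sterol exporter, -0.77 ± 0.22, limma adjusted p = 0.213. For cholesterol synthesis, 25 of 27 genes had a positive difference, with a median of 0.63, and none was called (15 had an unadjusted p under 0.05 in limma, beside 9.06% of all tested genes). Its members with the smallest p were Idi1 (1.24 ± 0.30, limma adjusted p = 0.11), Msmo1 (1.15 ± 0.28, limma adjusted p = 0.13), Sqle (1.09 ± 0.30, limma adjusted p = 0.192) and Fdft1 (0.89 ± 0.25, limma adjusted p = 0.207). The groups did not overlap for 2 of the 27, both higher, beside 2.64% of all tested genes. Fatty acid oxidation had 34 of 45 genes positive, 1 called higher (Acot3) and a median of 0.18, which was 0.066 without chow saline 2 and 0.38 without chow saline 1. Acot3, Slco1a4 and Slco1a1 are also among the called genes on the sex-biased lists. In lipogenesis, 14 of 28 were positive, none was called (3 at an unadjusted p under 0.05) and the median was 0.02, with -0.17 without both chow saline 2 and chow MCOPPB 4 and 0.29 without chow saline 3.

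Acute phase genes were positive in 27 of 34 cases (median 0.45), and interferon response genes in 39 of 45 (median 0.27). Neither list had a called member, and 10 and 16 members had an unadjusted p under 0.05, beside 9.06% of all tested genes. Without chow MCOPPB 1 the acute phase median was 0.25. Orm2, an acute phase protein, was at 199.7, 299 and 238 normalized counts in the 3 saline mice and 9521, 484, 1067, 1944 and 616 in the 5 MCOPPB mice, highest in chow MCOPPB 1 (2.25 ± 0.69, limma adjusted p = 0.26). Lcn2, lipocalin 2, was highest in the same mouse (85.0, 75 and 127 normalized counts in the 3 saline mice and 5693, 186, 737, 426 and 230.2 in the 5 MCOPPB mice; 2.08 ± 0.78, limma adjusted p = 0.411). With the first RIN value as a covariate, the median of the interferon list was -0.02. Pericentral hepatocyte genes were positive in 28 of 38 cases (median 0.31, none called, 9 at an unadjusted p under 0.05). Periportal genes were positive in 23 of 33 cases (median 0.17), and 1, Aldh1b1, was called higher, beside 0.156% of all tested genes.

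The labelled tissue was checked against its markers, and hepatocyte markers were abundant in all 8 libraries, none at 0. Of the Kupffer cell and macrophage markers, 18 of 20 tested had a positive difference (median 0.51), 8 were higher without overlap (2.64% over all tested genes), and none was called (9 at an unadjusted p under 0.05, beside 9.06% of all tested genes). Their summed counts were 1536 to 1903 with saline and 2726 to 4658 with MCOPPB, and none of the 21 was at 0 in all libraries. In bulk liver, more cells of a type and more RNA per cell cannot be told apart. Marco, a scavenger receptor of Kupffer cells, was at 30.3, 26.6 and 9.19 normalized counts in the 3 saline mice and 359, 91.9, 135, 451 and 204 in the 5 MCOPPB mice (1.79 ± 0.50, limma adjusted p = 0.213), and Cd5l, secreted by the same cells, ranged from 242 to 391 normalized counts with saline and 577 to 903 with MCOPPB (1.01 ± 0.26, limma adjusted p = 0.154). The complement genes C1qc (0.77 ± 0.19, limma adjusted p = 0.148) and C1qa (0.92 ± 0.25, limma adjusted p = 0.203) of the same list did not pass the test either. The part of these cells in the acute phase and interferon values was not tested. The endothelial list had a higher mean level without overlap (7.46, 7.59 and 7.60 on the log2 scale in the 3 saline mice and 7.64 to 7.87 with MCOPPB), and 3 of its 20 markers were higher without overlap, while its summed counts overlapped (2558 to 3570 and 3157 to 4326). Sums also overlapped for markers of stellate cells (3514 to 4930 and 3162 to 5075), cholangiocytes, lymphocytes, neutrophils, red cells and adipose tissue. Their median differences were 0.06 for hepatocyte, 0.17 for endothelial, 0.00 for stellate, -0.27 for cholangiocyte, -0.12 for lymphocyte, 0.13 for neutrophil, 0.82 for red cell and -0.79 for adipose markers. None of these lists had a called member, and 1, 5, 1, 0, 2, 0, 3 and 1 members had an unadjusted p under 0.05. A list of mesothelial, pancreatic, gut and kidney transcripts summed to 1699 to 2256 with saline and 769.1 to 1552 with MCOPPB. Most of that sum was Fabp2, an intestinal fatty acid binding protein, at 1666, 1473 and 2091 normalized counts in the 3 saline mice and 649.8, 1056, 1138, 1311 and 991 in the 5 MCOPPB mice (-0.73 ± 0.24, limma adjusted p = 0.326). Prss2, Slc34a1 and Umod of this list were at 0 in all 8 libraries.

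The genes tied to the drug's known target and to its label as a senolytic gave no call. The nociceptin receptor Oprl1 and its ligand Pnoc were listed at 0 in each of the 15 libraries. No level above the approximate limit of 3 reads was detectable for them, and none of 8 opioid genes passed the filter. In the senescence list, 20 of 29 tested genes had a positive difference (median 0.08). Of these 29, 1 had an unadjusted p under 0.05 in limma, beside 9.06% of all tested genes. The BCL2 family had 8 of 17 positive (median -0.03, none at an unadjusted p under 0.05), and p53 targets 15 of 24 (median 0.08, 3 at an unadjusted p under 0.05). Cdkn1a, the gene of the cell cycle brake p21, was at 12.6, 43.4 and 17.0 normalized counts in the 3 saline mice and 0, 15.1, 13.5, 13.4 and 9.92 in the 5 MCOPPB mice (-0.39 ± 0.27, limma adjusted p = 0.713). Cdkn2a, which encodes p16, did not pass the filter, with 0, 0 and 8.02 normalized counts in the saline mice and at most 3.56 in the MCOPPB mice. Cytosolic ribosomal protein genes were negative in 69 of 78 cases with a median of -0.18, which ran from -0.43 without chow saline 1 to 0.055 without chow saline 2. Negative differences were also found for transcripts of the mitochondrial genome in 14 of 15 cases, with a median of -0.43. Neither list had a called member (0 and 1 at an unadjusted p under 0.05).

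The remaining lists had no called member. Their counts at an unadjusted p under 0.05 in limma stand beside 9.06% of all tested genes. Glucose metabolism had 16 of 28 positive (median 0.12, 4 at an unadjusted p under 0.05). Of clock genes, 14 of 24 were positive (median 0.15, 6 at an unadjusted p under 0.05), and Nr1d1, the clock repressor REV-ERB alpha, was at 1173, 894 and 417 normalized counts in the 3 saline mice and 262, 750.2, 124, 216 and 678 in the 5 MCOPPB mice (-1.01 ± 0.38, limma adjusted p = 0.415). Glucocorticoid-responsive genes were positive in 19 of 21 cases (median 0.24, 6 at an unadjusted p under 0.05), with the metallothionein Mt2 at 40.6, 12.9 and 0 normalized counts in the 3 saline mice and 164, 138, 20, 79.5 and 265 in the 5 MCOPPB mice (1.39 ± 0.39, limma adjusted p = 0.213). NRF2 targets had 18 of 29 positive (median 0.14, 5 at an unadjusted p under 0.05), and Nqo1, a quinone reductase on this list and on that of aryl hydrocarbon receptor targets (4 of 6 positive, median 0.12), had 0.75 ± 0.24, limma adjusted p = 0.276. Heat shock genes were positive in 18 of 23 cases (median 0.19), unfolded protein and stress response genes in 10 of 28 (median -0.10), immediate early genes in 11 of 16 (median 0.08), cell cycle genes in 13 of 23 (median 0.01) and heme genes in 6 of 13 (median -0.01). These last 5 lists had 3, 1, 0, 2 and 2 members at an unadjusted p under 0.05. Of 6 electron partners of the P450s, 4 were positive (median 0.05), and 1 member each of this list and of the aryl hydrocarbon list had an unadjusted p under 0.05.

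Among the 5 MCOPPB mice, chow MCOPPB 5 most often held the extreme value. It was lowest for 10 of the 19 genes that fell and highest for none of them, and it was highest for 8 of the 18 genes that rose. Chow MCOPPB 2 held the highest value, the one nearest to saline, for 9 of the 19 genes that fell. Chow MCOPPB 4, which stood apart in its mitochondrial share, was nearest to saline for 3 of the genes that fell and for 2 of those that rose.

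The same genes were read in the DEN/HFD mice, which share no library with the chow mice. Of the 37 genes called on chow, 31 had a difference of the same sign under DEN/HFD, and for all 37 it was smaller in size. The genes were chosen for their change on chow, so this count is no independent comparison of size. The difference between both MCOPPB effects, tested over all genes with limma, passed for 8 genes (0.0692%), and 5 of these were called on chow: Cyp2b9, Cyp2b13, Cyp2c40, Dclre1a and Elovl3. For Cyp2b9 the difference was 5.50 on chow and 1.57 ± 0.31 under DEN/HFD. Elovl3 had -2.78 on chow and 0.47 ± 0.27 under DEN/HFD, and Cyp2c40 2.81 and 0.06 ± 0.33. The count of 8 was between 2 and 12 under the alternative fits.

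**Figure D4:**
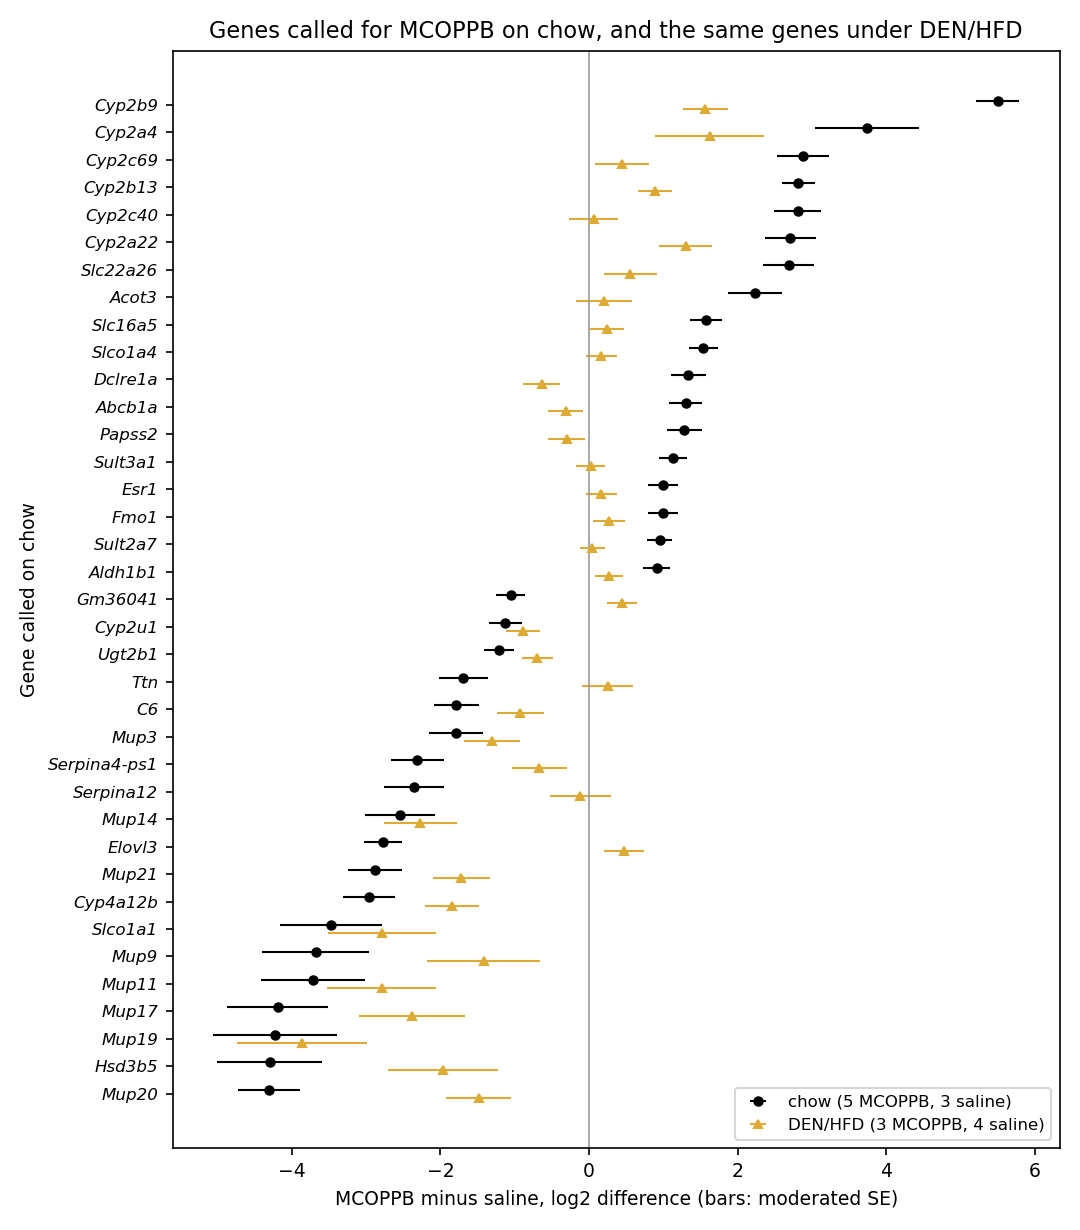
Log2 difference between MCOPPB and saline, with moderated SE bars, for the 37 genes called on chow, circles for chow (5 MCOPPB, 3 saline mice) and triangles for DEN/HFD (3 MCOPPB, 4 saline mice). All circles lie farther from 0 than the triangle of the same gene, and 31 of 37 pairs lie on the same side of 0.

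The number of called genes depended on the libraries and covariates, as the plot of calls by setting shows. Leaving out 1 library at a time gave 13 genes without chow saline 3, 25 without chow saline 2, 25 without chow MCOPPB 5, 29 without chow MCOPPB 3, 32 without chow MCOPPB 1, 36 without chow MCOPPB 4, 42 without chow MCOPPB 2 and 50 without chow saline 1. With the first RIN value as a covariate, 15 genes were called, 12 of them among the 37, and with the second, 26, of which 25 were among the 37. Without both libraries that stood apart, chow saline 2 and chow MCOPPB 4, 33 genes were called and 20 of the 37 kept their call. Of the 37 genes, 13 were called with each of the 8 chow libraries left out in turn, the other 24 all being lost without chow saline 3. There were 9 called in every alternative fit in which they were tested. These 9 were Cyp2b9, Cyp2b13, Cyp2c40, Cyp2c69, Cyp2a22 and Slc22a26, which rose, and Mup20, Elovl3 and Serpina4-ps1, which fell.

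**Figure D5:**
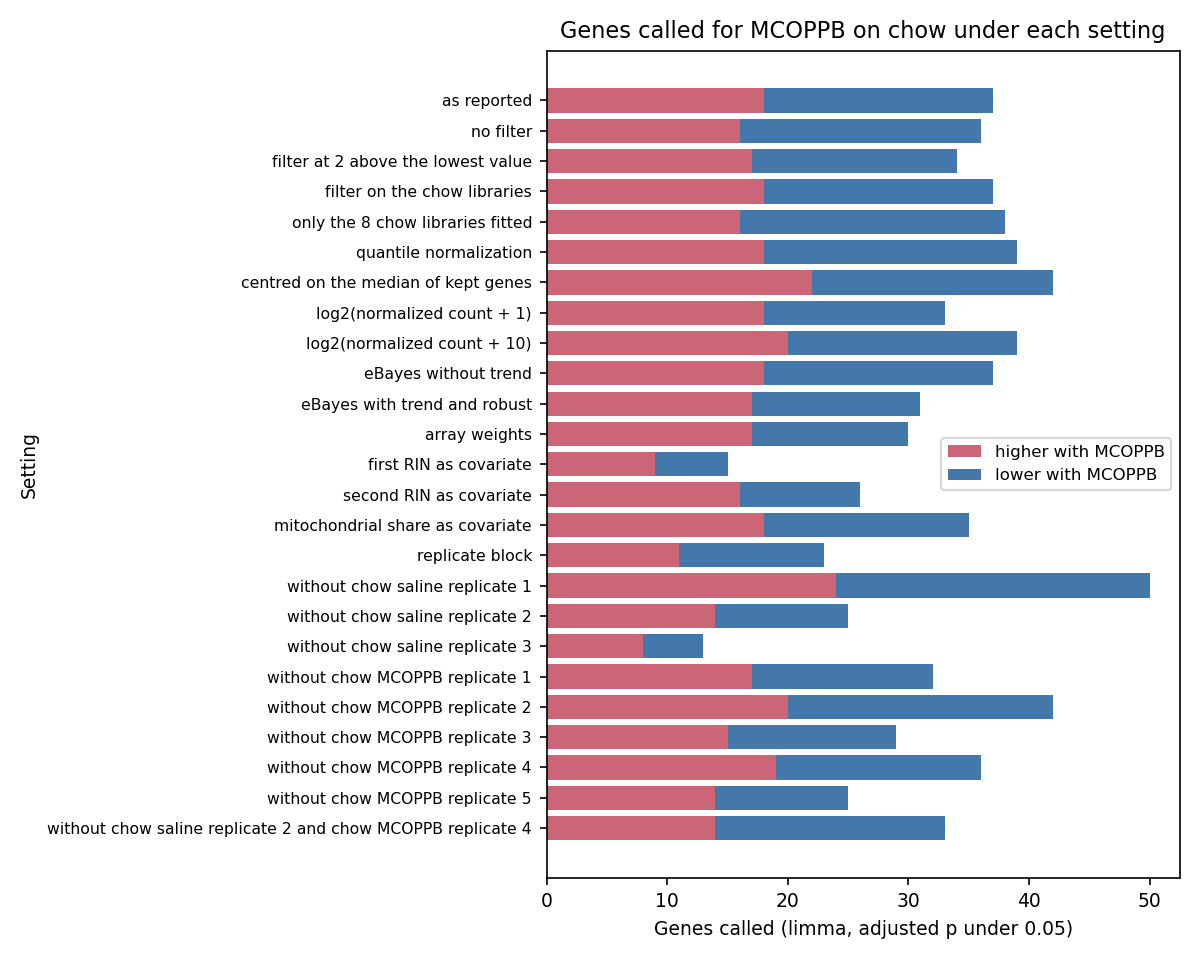
Number of genes called for MCOPPB on chow (limma, adjusted p under 0.05) as reported and under 24 alternative settings, red for genes higher and blue for genes lower with MCOPPB. Counts run from 13 without chow saline 3 to 50 without chow saline 1, beside 37 as reported.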

How the data were processed

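Liver RNA of 8 chow mice (3 saline, 5 MCOPPB) was compared, with 7 DEN/HFD mice in the same fit. Per the labels' protocols, strand-specific libraries were made from 250 ng of RNA and read as single reads of 75 bases. Per the submitters' processing notes, Trimmomatic, STAR 2.7.0e, HTSeq and DESeq2 were used with GRCm38 (mm10), with no roles or settings stated. The authors deposited variance-stabilised log2 values for 54281 Ensembl genes. Their lowest value, 5.49, was read as 0 reads. The transformation was inverted to normalized counts, which assumes the parametric form of that transformation. Depth was estimated from the value most low genes share as 1 read, and covers 14.1 to 18.7 M reads per chow library. It is a rough estimate, since most low values were not whole reads on this unit.

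Genes at least 1 above the lowest value (22.5 normalized counts) in at least 3 of the 15 libraries were kept (11568). They were tested with limma 3.58.1 (R 4.3.3) on 4 group means with eBayes and a mean-variance trend (11 residual degrees of freedom, median prior 6.34), two-sided, with Benjamini-Hochberg adjustment over all genes and a threshold of 0.05. Errors of differences are moderated SE. The scripts were tested on simulated data. Same-numbered mice of both chow groups were treated as unpaired.

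The members and all 39 gene lists were chosen with earlier results of these data known. Named were all called genes, the 10 next by p, up to 4 members of each list by p (only those with an unadjusted p under 0.05) and a few target and regulator genes. Some list members under this rule are given only within their list's counts, and neighbours of called genes and genes described for 1 value were named after their values were seen. GENCODE M21 supplied names and positions (54107 IDs found, 53544 with the same version). Promoters came from RefSeq (GRCm38.p6), where 29 of the 37 called genes were found.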

Additional observations from a re-analysis of the deposited data

Results flagged for a closer look

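In 10 of 138 values examined among the 5 chow MCOPPB mice, 1 mouse lay farther from the other 4 than Dixon's 95% limit (a gap of over 0.71 of the whole range). Chance alone flags about 1 in 20 groups. Chow MCOPPB 4 was the outlying mouse 4 times. It held 83.3 normalized counts of Ttn where the other 4 held at most 0.67, 195.3 of Cela1 against 65.8 to 84.9, 30.2 of Ppargc1a against 97.8 to 125.9, and a mitochondrial share of 31.0% against 14.9% to 19.1%. Chow MCOPPB 5 held 2190.0 of Mup20 against 6011 to 8252, and 2262 of Acot4 against 959.2 to 1219. Chow MCOPPB 1 held 149.5 of Ighm against 112.7 to 116.1, and 0 of Cdkn1a against 9.92 to 15.1. Chow MCOPPB 2 held 2394 of Ugt2b1 against 1694 to 1758, and chow MCOPPB 3 held 3.21 of Socs2 against 44.9 to 78.2.

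The MCOPPB effect differed between chow and DEN/HFD, by limma's test of the difference itself, for 8 genes. The chow difference minus the DEN/HFD difference was 3.93 for Cyp2b9, 1.93 for Cyp2b13, 2.74 for Cyp2c40, 1.97 for Dclre1a and 2.25 for Usp2, a clock-controlled ubiquitin protease. It was -3.24 for Elovl3, -1.47 for Dtx4 and -2.56 for Gm43302. Usp2, Dtx4 and Gm43302 were not called on chow alone (0.44 ± 0.28, -0.63 ± 0.18 and -0.94 ± 0.31, SE). Under DEN/HFD, Usp2 fell with MCOPPB (-1.82 ± 0.29, limma adjusted p = 0.0312). Dtx4 had 0.84 ± 0.19 there (limma adjusted p = 0.233) and Gm43302 1.61 ± 0.32 (limma adjusted p = 0.126).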

How the results depend on the processing

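Over 24 alternative fits, none of the 37 called genes changed direction. Whole reads could not be recovered from the deposited values (15.2% to 45.4% of low values were whole within 0.01 read), so the planned count-based fit was not run. With the first RIN value as a covariate, 15 genes were called, 9 higher and 6 lower. With the second RIN value, 10 were lower. Leaving out 1 replicate gave 13 to 50 called genes, 8 to 24 higher and 5 to 26 lower, the lowest counts without chow saline 3 and the highest without chow saline 1. The replicate block gave 23 called genes, 11 higher and 12 lower, and 2 for the difference between diets. The numbers are not stated to pair the mice, and 1 of 3 same-numbered chow pairs correlated above 0.1 (-0.30 to 0.11).

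The 8 genes whose effect differed between diets became 2 with no filter, 4 with log2 of the normalized count plus 1 or plus 10, 3 with the first and 2 with the second RIN value, 4 with the mitochondrial share as covariate, and 2 to 12 with 1 library left out.

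List medians that moved by more than 1 SD with the first RIN value were -1.53 for male-biased genes, 0.11 for growth hormone signalling, 0.25 for glucose metabolism, -0.018 for interferon, 0.32 for NRF2 targets, 0.25 for immediate early genes, 0.24 for pericentral genes, -0.59 for ribosomal proteins, -0.27 for heme, 0.36 for Kupffer and macrophage markers, 0.23 for stellate, -0.16 for cholangiocyte, 1.84 for red cell and -0.26 for adipose markers. With libraries left out, the medians ranged from 0.014 to 0.18 for growth hormone signalling, 0.36 to 0.49 for CAR and PXR targets, 0.00023 to 0.15 for glucose metabolism, 0.0058 to 0.26 for p53 targets, 0.028 to 0.20 for NRF2 targets, 0.25 to 0.39 for pericentral genes, 0.39 to 1.41 for red cell and -1.24 to -0.34 for adipose markers. Without both chow saline 2 and chow MCOPPB 4, an alternative chosen after seeing the data, growth hormone signalling was at 0.09 and adipose markers at -1.22.

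Of 3186 alternative values of single genes, 19 changed sign, all of genes that were not called. Cyp2a5 was at -0.11 and Gm43302 at 0.15 with the first RIN value. Ghr was at 0.029 after centring on the median and 0.020 with the mitochondrial share, where Igf1 was at 0.20. Cish was at 0.12 with array weights and 0.20 with the replicate block. With libraries left out, Ghr ran from -0.11 to 0.061, Igf1 from -0.37 to 0.23, Cish from -0.39 to 0.42 and Mup18 from -0.25 to 2.12. The cause of these changes was not tested. Depth limits the weakly expressed genes, whose differences the deposited scale compresses.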
